A study of Homo sapiens with 6 samples.

Results

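The subject here is a set of 928 introns of K562 cells that were already partly retained with a control shRNA and were more retained after knockdown of ZRSR2. They were found among 241593 introns listed for every library. Retention of an intron is used here as a score for the share of its transcripts that keep it. It was computed as 100 times the reads across its boundaries over those reads plus 2 times the spliced reads. Reads at a single end also raise the score, so a high value alone does not show that the whole intron was kept. A member had a mean of at least 50 boundary plus spliced reads per library and a mean control retention of at least 5%. Its retention was above both control libraries in each of the 4 knockdown libraries, and the knockdown mean was at least 5 points above the control mean. These retention values chose the members, so the rise of a member over the control is given as a description, with no test.

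K562 is a human leukaemia line with erythroid and megakaryocytic features. Poly(A)-selected RNA was sequenced from cells transduced with sh1 or sh2, each an shRNA against ZRSR2, or with the control shRNA Con_sh, with 2 libraries in each of the 3 groups and none of them treated otherwise per the labels. The 2 libraries of a group are numbered by experiment, and values are given in that order. Nothing says that the experiments used separate transductions, so the spread between libraries may be partly technical.

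ZRSR2 is a protein of the minor spliceosome that contacts the 3′ splice site of U12-type introns, a rare class removed by its own small nuclear RNAs. These introns usually sit singly in genes whose other introns are of the common, U2-type class, and they are known to be spliced more slowly. An intron that stays in a polyadenylated transcript usually holds that transcript in the nucleus or exposes it to decay, so partial retention can set how much mature mRNA a gene gives.

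The knockdown was visible in the spliced reads of ZRSR2, which came to 10.7 and 10.7 CPM (counts scaled to a common library size) with sh1 and 10.2 and 12.8 with sh2, against 27.7 and 23.4 with Con_sh. The log2 fold change of both shRNAs over Con_sh was -1.20 ± 0.175 (SE), with an adjusted p of 0.502 by edgeR's quasi-likelihood test and of 3.45e-06 by DESeq2. Libraries held 82986327 to 101120454 spliced and 4387311 to 5199693 boundary counts. The summed level of 10 erythroid genes was 11205 and 5583 CPM with sh1 and 17303 and 8617 with sh2, against 4387 and 5776 with Con_sh. All 10 were measured in every library, and none was called by edgeR. Of 5 lymphoid genes, MS4A1 and CD2 were not measured and the other 3 summed to 8.11 to 12.6 CPM with the ZRSR2 shRNAs and 12.2 to 18.1 with Con_sh. The 5 stromal or epithelial genes summed to 143 to 168 CPM with the ZRSR2 shRNAs and 181 to 184 with Con_sh. The part of these levels in the retention values was not tested.

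Intron sequence could be read only where the ends of an intron fall inside the promoter windows of RefSeq on GRCh38.p14, from 250 bases before to 50 after a gene's start. The 5′ splice site was readable for 31 of the 928 introns and the 3′ splice site for 5. The sites are shown because the first bases of an intron set its class: U12-type introns commonly open with ATATCC or GTATCC. For 5′ sites the first 12 intron bases are printed with the 6 bases compared with those motifs in capitals. For 3′ sites the last 40 bases are printed with the closing AG in capitals. The members shown are those with the largest rises among the readable ones, and DLG1 as the readable member that does not open with GT.
GFI1B 3′ splice site, chr9:132978467-132978506, plus strand: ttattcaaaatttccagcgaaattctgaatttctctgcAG
AIG1 3′ splice site, chr6:143165042-143165081, plus strand: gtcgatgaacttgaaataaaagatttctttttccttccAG
LINC01145 5′ splice site, chr1:145214665-145214676, minus strand: GTATTTatgggt
Unnamed locus 5′ splice site, chr11:66336466-66336477, plus strand: GTGAGTaacact
NDUFS1 5′ splice site, chr2:206159329-206159340, minus strand: GTGAGGtcttgt
FAM228B 5′ splice site, chr2:24123534-24123545, plus strand: GTGGGCgccaac
CSAG4 5′ splice site, chrX:152733860-152733871, plus strand: GTAAGAtgccga
CDPF1 5′ splice site, chr22:46250244-46250255, minus strand: GTGAGTtcgagg
PTTG1IP 5′ splice site, chr21:44865383-44865394, minus strand: GTAAGTagcacg
DLG1 5′ splice site, chr3:197298061-197298072, minus strand: GCGAGGttccgg
SNRPE 5′ splice site, not a member, chr1:203861714-203861725, plus strand: GTATCCtacgca
PHYH 5′ splice site, not a member, chr10:13299956-13299967, minus strand: GTATCCtttggg

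Of the 31 readable members, 30 opened with GT and 0 with ATATCC or GTATCC on the transcribed strand, which allows a share of up to 9.68% from counting alone. Among 507 readable introns with the same depth and control retention that were not members, 0 did, which allows up to 0.592%. In all, 5 of 3302 readable introns (0.151%) held the motif. Readable sites lie beside a gene's start by construction, so nothing follows from them for the other members. The motif of SNRPE, which encodes a core protein of spliceosomal small nuclear ribonucleoproteins, was in an intron just outside the set. Its retention was 25.03% and 16.2% with sh1 and 23.7% and 16.4% with sh2, against 3.78% and 6.06% with Con_sh, a control mean of 4.92%. The intron of PHYH, a peroxisomal hydroxylase, had a control mean of 2.99% and a rise of 7.82 points. In TMEM184B, whose intron also opens with GTATCC, the knockdown mean minus the control mean was -2.08 points at a control mean of 4.79%. In GPN3 it was -8.07 points with a mean of 25.8 reads, and the motif intron of TSNAX-DISC1 had a mean of 1.17 reads. All 5 readable 3′ ends of members closed with AG.

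In the 928 introns, the median retention was 34.0% and 25.5% with sh1 and 33.0% and 26.3% with sh2, against 16.1% and 16.0% with Con_sh. The control medians were nearly equal, while the first experiment stood above the second with either shRNA. Boundary reads summed over the members came to 177236 and 128911 with sh1 and 197145 and 128102 with sh2, against 92973 and 95308 with Con_sh. Their spliced reads came to 141746 and 180830 with sh1 and 166991 and 158184 with sh2, against 200748 and 223259 with Con_sh. Thus boundary reads were higher and spliced reads lower in every knockdown library than in either control library. The rule asks each member for such a shift of boundary against spliced reads, and the sums were not scaled to library size.

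**Figure D1:**
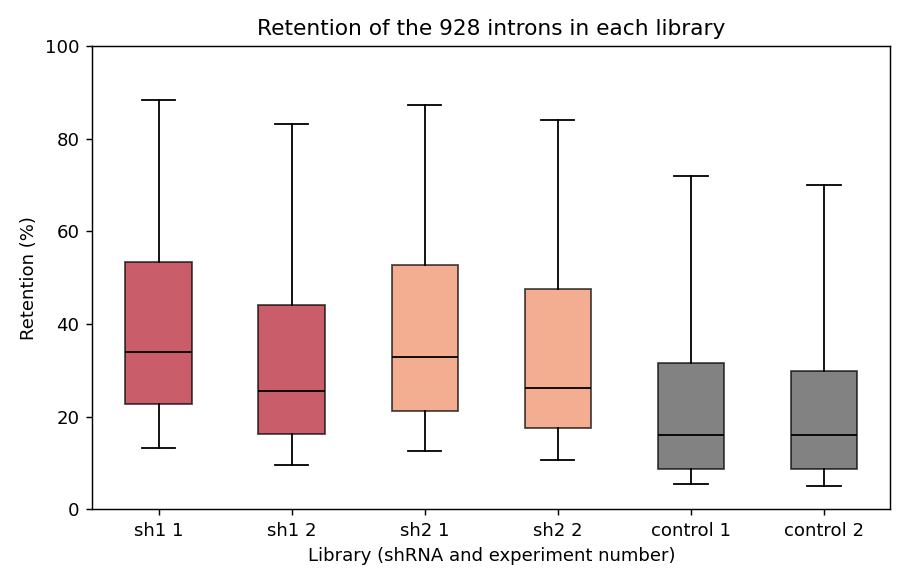
Retention in percent of the 928 introns in each of the 6 libraries, with the median as a line, the quartiles as a box and the 5th to 95th percentiles as whiskers. The medians are 34.0% and 25.5% with sh1, 33.0% and 26.3% with sh2 and 16.1% and 16.0% in the control.

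The 20556 introns of the same depth and control retention outside the set had group medians of 10.5% ± 1.69 with sh1 and 11.6% ± 1.24 with sh2, against 10.8% ± 1.10 with Con_sh (SD, n = 2 libraries). The members' medians averaged 29.8% ± 5.96 with sh1 and 29.6% ± 4.73 with sh2, against 16.1% ± 0.0700 with Con_sh. The order of the experiments was also seen outside the set. Experiment 1 was above experiment 2 in 81.7% of members with sh1 and in 70.9% with sh2, against 51.1% with Con_sh. Among the other introns these shares were 69.9% with sh1 and 63.4% with sh2, against 63.9% with Con_sh. The rise over the control mean had a median of 12.9 and 7.21 points in the sh1 libraries and of 11.8 and 8.75 points in the sh2 libraries.

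The mean rise of a member ranged widely, with quartiles of 7.16, 10.4 and 16.2 points. It was 5 to 10 points in 442 members, 10 to 20 in 335, 20 to 30 in 97, 30 to 40 in 45 and at least 40 in 9. Many members stood close to the rule, and 182 had a gap of under 1 point between the lowest knockdown library and the higher control. The 2 control libraries differed by at least 5 points in 248 members (26.7%), with a median gap of 2.74 points. Of the 21484 introns with the required depth and control retention, 1561 had every knockdown library above both controls and 1302 had every one below, before any limit on size. The same rule turned round, for introns lower by at least 5 points, found 494 introns.

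**Figure D2:**
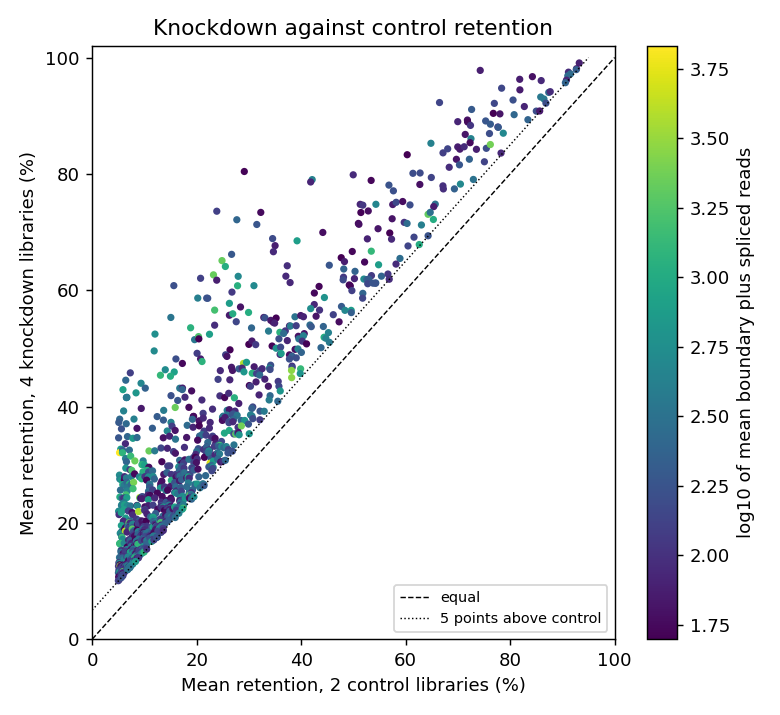
Mean retention in percent over the 4 knockdown libraries against the mean over the 2 control libraries for the 928 introns, coloured by the log10 of their mean reads. All points lie on or above the dotted line that the rule sets 5 points above the control, and the 12 largest rises are at control retention under 40%.

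Members came from the whole range of control retention. Among introns retained at 5 to 10% in the control, 289 of 9825 (2.94%) were members, and their median rise was 8.92 points. At 20 to 40% it was 221 of 3426 (6.45%), with a median rise of 12.7 points, and at 40 to 100% it was 160 of 2500 (6.40%), with a median rise of 11.6 points. The 5 members with the highest control retention had little room to move. They were introns of GADD45A and XRCC3 and 3 introns with no gene name. GADD45A, a stress-response gene, had 98.4% and 100% with sh1 and 97.9% and 95.4% with sh2, against 92.2% and 93.1% with Con_sh. XRCC3, which acts in homologous recombination, had 95.7% and 100% with sh1 and 96.3% and 98.0% with sh2, against 87.0% and 95.3% with Con_sh. An intron so retained in the control is one that few of its transcripts splice at the listed positions.

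At the edges of the rule, EXOG (5.01%), PDE6D (5.03%) and ZNF544 (5.04%) had just enough control retention, and ZNF189 (4.97%), CCDC43 (4.95%) and COX5A (4.94%) just too little. The CCDC43 intron at chromosome 17, 44679044 to 44680584, had a rise of 21.0 points, and another intron of the same gene was a member. RBCK1, DDX55 and ASPRV1 were just above the 5-point rise, at 5.004, 5.005 and 5.02 points, and SANBR, NEIL1 and MDP1 just below, at 4.996, 4.98 and 4.97 points. In depth, introns of CALU, TOP6BL and an unnamed locus had a mean of 50 reads, and introns of SLC25A45, NDUFS1 and LINC01569 had 49.8, 49.7 and 49.7.

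Overlapping members on a strand were counted as 1 locus, which gave 858 loci, 55 of them with more than 1 member. A gene name from RefSeq was found for 876 members in 681 genes, and 577 of these genes held a single locus. The share of protein-coding genes was 83.3% among members and 89.6% among the other introns of like depth and control retention. Transcribed pseudogenes made up 4.85% of members, against 2.93% of the other introns, and introns with no gene 5.603% against 2.23%. Of the members, 96 (10.3%) overlapped a gene on the opposite strand, against 5.73% of the other introns. The counting did not use strand, so reads from such a partner cannot be told apart from those of the member.

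The median length of members was 1259.5 nt, against 817 nt for the other introns and 1472 nt for all introns of sufficient depth. Introns under 200 nt made up 13.7% of members and 20.8% of the other introns. A shorter listed intron, on either strand, lay within 25.1% of members. This share was 16.0% for the other introns and 8.85% for all introns of sufficient depth. Its part in the rise was not tested. The median position of members was at 58.9% of the gene's length, against 62.2% for the other introns. In 738 members (79.5%) at least 95% of the intron's bases were covered by reads in every knockdown library, against 71.8% of the other introns. In 45 members (4.85%) under 50% was covered in some knockdown library, and these were long, with a median of 17441 nt. For those 45 the boundary reads do not show that the whole intron was kept.

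A retained intron gives reads across both of its ends, while a new splice site or a new start or end inside it gives reads at 1 end only. The median share of boundary reads at the 5′ end was 50% with sh1 and 48.9% with sh2, against 49.0% with Con_sh. Fewer than 20% of boundary reads came from the weaker end in 20.9% of members with sh1 and 20.3% with sh2, against 21.3% with Con_sh. The rule used the sum of the counts at both ends and not its division between them. A gain at 1 end alone can still bring an intron into the set and shift its balance. The balance of members is therefore not independent of the rule. The edgeR quasi-likelihood test was applied to it over all introns with a mean of at least 20 boundary reads. Of 858 members tested, 1 was called (0.0103% of all 38666 introns tested were), and 89 (10.4%) had an unadjusted p under 0.05, against 4.41% of all.

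The called member was the intron of PDE6D at chromosome 2, 231739189 to 231781064, 41876 nt long on the minus strand. PDE6D carries prenylated proteins between membranes. Its 5′ end gave 16.1% of boundary reads with sh1 and 8.25% with sh2, against 83.6% with Con_sh. The log2 change of the lower-coordinate (3′) over the higher-coordinate (5′) count, both shRNAs over Con_sh, was 5.17 ± 0.690 (SE), with an adjusted p of 0.0153 by edgeR. The call was lost when sh1 experiment 1, sh2 experiment 2 or either Con_sh library was left out. In this intron the reads shifted from one end to the other, and it also holds a shorter listed intron.

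The 12 loci with the largest rise, chosen by the readout and given as a description, had rises of 38.6 to 51.3 points. In 10 of them every knockdown library covered all bases of the intron, and in those of RNF121 and GFI1B it did not.

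The largest rise was in RNF121, a membrane-bound ubiquitin ligase recalled to hold a U12-type intron. Its member spans 33827 nt (chromosome 11, 71960892 to 71994718) and had 80.4% and 73.5% with sh1 and 87.3% and 80.4% with sh2, against 28.0% and 30.2% with Con_sh. All 4 knockdown libraries were far above the controls, but a mean of only 52.5 reads stood behind each value. The lowest covered share was 34.5%, the intron holds shorter listed introns, and the 5′ end gave 0.0% of boundary reads with sh1 and 3.64% with sh2, against 10.0% with Con_sh. CUEDC1, which has a ubiquitin-binding CUE domain, followed in its intron at chromosome 17, 57867416 to 57868149, with values of 89.9% and 52.5% with sh1 and 84.0% and 67.9% with sh2, against 22.4% and 25.3% with Con_sh. The C5orf34 intron (chromosome 5, 43487112 to 43487908) had 68.6% and 53.3% with sh1 and 71.6% and 49.7% with sh2, against 15.7% and 15.6% with Con_sh. The controls were nearly equal in both, while the first experiment was higher with each shRNA.

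A pair of genes of the cilium came next. IFT122, part of the complex that carries cargo back along the cilium, had 78.3% and 63.4% with sh1 and 79.1% and 67.7% with sh2, against 24.7% and 30.6% with Con_sh at chromosome 3, 129512413 to 129514388. KATNIP, a partner of the microtubule-severing katanin, had 72.4% and 51.9% with sh1 and 65.4% and 58.5% with sh2, against 19.5% and 22.03% with Con_sh at chromosome 16, 27773210 to 27774944. In either gene the 4 knockdown libraries lay far above the controls.

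GFI1B is a transcriptional repressor needed for erythroid and megakaryocytic cells, the lineages K562 resembles. Its intron (chromosome 9, 132976596 to 132978506), whose 3′ end is printed above, had 53.8% and 61.1% with sh1 and 89.5% and 89.1% with sh2, against 41.2% and 23.4% with Con_sh. Here sh2 was higher than sh1 in both experiments, and the control libraries were far apart. Its bases were covered to 21.1% in the least covered library. The 5′ end gave 0.0% of boundary reads with sh1, with sh2 and with Con_sh, so its boundary reads lay at the 3′ end alone.

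ICE1, a scaffold of the little elongation complex that transcribes small nuclear RNA genes, had 70.7% and 43.5% with sh1 and 62.4% and 44.7% with sh2, against 17.4% and 12.7% with Con_sh at chromosome 5, 5437115 to 5439894. OCRL, an inositol polyphosphate phosphatase of endosomes, had 83.7% and 57.1% with sh1 and 75.3% and 69.1% with sh2, against 34.4% and 28.6% with Con_sh at chromosome X, 129588264 to 129588885. SLC9A8, a sodium-proton exchanger of the Golgi recalled to hold a U12-type intron, had 73.2% and 54.4% with sh1 and 70.4% and 66.7% with sh2, against 32.7% and 20.7% with Con_sh at chromosome 20, 49863068 to 49864738. In these 3 genes the lowest knockdown value came from sh1 experiment 2.

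CLCN7 encodes the chloride-proton exchanger of lysosomes and had a pair of members in the first 12. The first along the transcript (chromosome 16, 1460528 to 1460815) had 72.2% and 48.4% with sh1 and 81.5% and 58.2% with sh2, against 27.8% and 21.9% with Con_sh. The other (chromosome 16, 1459188 to 1460417) had 68.5% and 45.5% with sh1 and 80.0% and 56.6% with sh2, against 26.2% and 20.2% with Con_sh. The values of the pair follow each other library by library. PEX16, needed to build peroxisome membranes, had 69.5% and 52.7% with sh1 and 72.3% and 61.8% with sh2, against 26.6% and 24.4% with Con_sh at chromosome 11, 45913939 to 45914130.

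**Figure D3:**
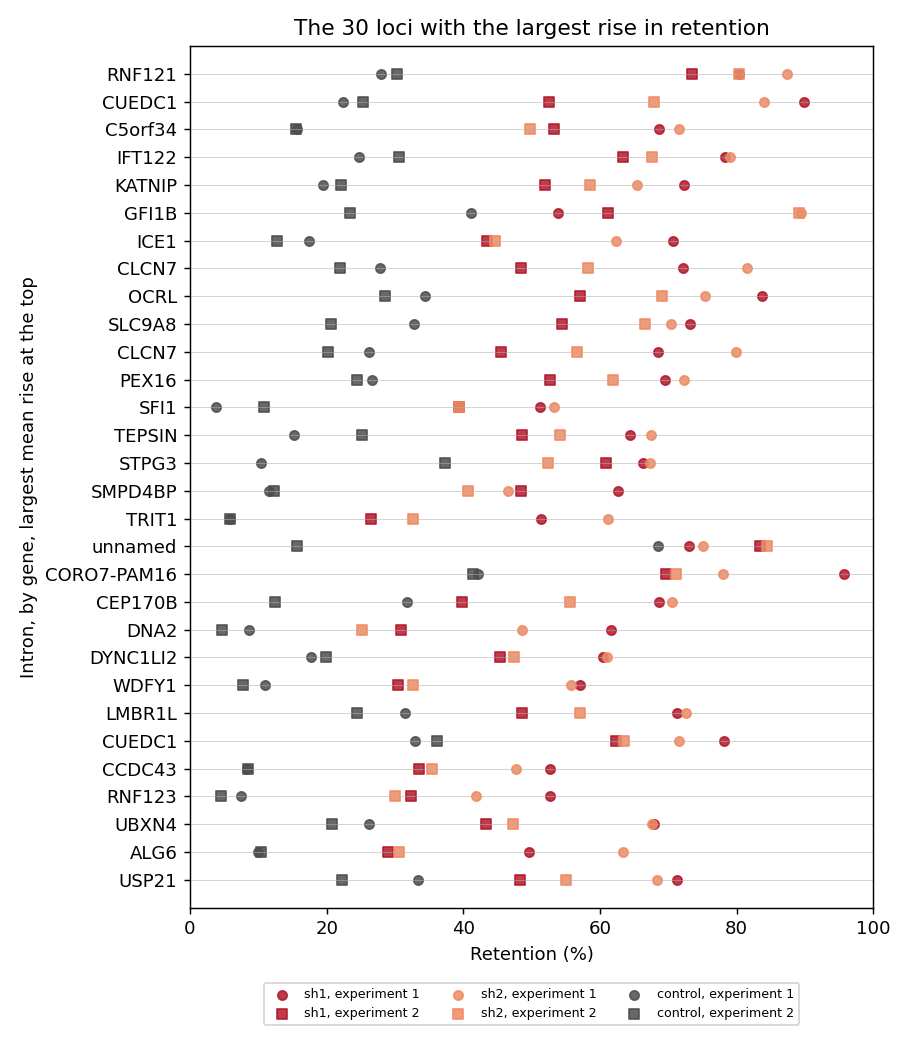
Retention in percent of the 30 loci with the largest mean rise, 1 row per intron with the gene at the left, circles for experiment 1 and squares for experiment 2, the 2 shRNAs in red and orange and the control in grey. The controls lie left of all 4 knockdown points in each row, and the unnamed locus and STPG3 have controls far apart.

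Loci 13 to 30 had rises of 32.9 to 38.5 points. They lay in SFI1, TEPSIN, STPG3, SMPD4BP, TRIT1, CORO7-PAM16, CEP170B, DNA2, DYNC1LI2, WDFY1, LMBR1L, CUEDC1, CCDC43, RNF123, UBXN4, ALG6, USP21 and an unnamed locus. TRIT1, which modifies transfer RNAs, had 51.3% and 26.5% with sh1 and 61.2% and 32.6% with sh2, against 5.91% and 5.88% with Con_sh. DNA2, a nuclease and helicase of DNA replication, had 61.6% and 30.9% with sh1 and 48.6% and 25.2% with sh2, against 8.66% and 4.64% with Con_sh. DYNC1LI2, a light intermediate chain of dynein, had 60.5% and 45.4% with sh1 and 61.0% and 47.4% with sh2, against 17.7% and 19.97% with Con_sh. In these 3 genes experiment 1 was the higher one with each shRNA. ALG6 encodes a glucosyltransferase of N-glycan assembly, and RNF123 and USP21 encode enzymes that add and remove ubiquitin. The unnamed locus on chromosome 16 (29541711 to 29545178) had controls of 68.5% and 15.7%, so its rise of 36.9 points is large against Con_sh experiment 2 only. SMPD4BP is a near-identical copy of SMPD4, and reads of the copies could have been exchanged.

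A list of 58 genes recalled from general knowledge to hold a U12-type intron was compared with the members by counts alone; the list was written with earlier results of these data known. Of its genes, 43 had an intron with the depth and control retention required, and 27 of these (62.8%) held a member. Among all genes, 681 of 7116 (9.57%) did. Of the 167 such introns in the listed genes, 44 (26.3%) were members, against 928 of 21484 (4.32%) in all. The 44 members, in 37 loci, had a median rise of 16.9 points and a median control retention of 14.5%, against 10.4 points and 16.1% for all members. Their median length was 649.5 nt, against 1259.5 nt for all members.

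MAP kinases were among them. Of 9 genes named MAPK and a number with an intron of the required depth and control retention, 6 held a member, among them MAPK15, which is not on the list. Over all genes with such an intron, 681 of 7116 (9.57%) did. MAPK8, the stress kinase JNK1, had an intron read from either of 2 upstream ends. The longer (chromosome 10, 48424160 to 48425887) had 54.4% and 28.5% with sh1 and 57.4% and 37.8% with sh2, against 5.98% and 6.87% with Con_sh, and the shorter (chromosome 10, 48424586 to 48425887) had 35.8% and 14.6% with sh1 and 39.6% and 15.9% with sh2, against 5.49% and 6.72% with Con_sh. Both were higher in the first experiment with each shRNA. MAPK9, another stress kinase, had 33.7% and 13.04% with sh1 and 27.2% and 14.3% with sh2, against 8.77% and 5.08% with Con_sh over 5099 nt.

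The p38 kinases MAPK11, MAPK12 and MAPK14 followed. MAPK12 had 52.4% and 36.8% with sh1 and 48.5% and 43.2% with sh2, against 16.9% and 13.1% with Con_sh in its intron of 115 nt. The adjacent MAPK12 intron (chromosome 22, 50255882 to 50256084) had 61.4% and 46.9% with sh1 and 59.8% and 56.6% with sh2, against 33.9% and 25.9% with Con_sh. MAPK11 had 58.6% and 53.9% with sh1 and 58.5% and 56.4% with sh2, against 41.1% and 42.5% with Con_sh in an intron of 234 nt. Its neighbour (chromosome 22, 50265661 to 50266225) was above 50% in every library, at 59.2% and 62.1% with sh1 and 62.6% and 63.8% with sh2, against 52.7% and 51.4% with Con_sh. MAPK14 had a pair of overlapping members that share a start. The longer, to 36100187 on chromosome 6, had 33.5% and 19.6% with sh1 and 42.8% and 26.8% with sh2, against 11.4% and 8.15% with Con_sh. The shorter, to 36095986, had 25.7% and 13.7% with sh1 and 28.6% and 19.9% with sh2, against 6.33% and 3.94% with Con_sh.

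ARAF is a kinase that acts upstream of MAP kinases. It had 32.7% and 17.9% with sh1 and 22.04% and 16.4% with sh2, against 5.52% and 6.65% with Con_sh in an intron of 505 nt. Its control libraries were low and its highest value came from sh1 experiment 1.

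Of 7 E2F genes with eligible introns, which encode transcription factors of the cell cycle, 4 held a member. For all genes with eligible introns it was 681 of 7116 (9.57%). E2F3 had 34.9% and 19.0% with sh1 and 24.9% and 19.0% with sh2, against 5.31% and 5.29% with Con_sh. E2F2 had 22.7% and 10.2% with sh1 and 10.6% and 12.4% with sh2, against 5.16% and 6.36% with Con_sh. E2F1 had 19.0% and 13.03% with sh1 and 15.4% and 12.4% with sh2, against 5.70% and 8.85% with Con_sh. Their control retention was low and alike. E2F4 had 20.6% and 8.60% with sh1 and 11.6% and 9.52% with sh2, against 6.15% and 4.75% with Con_sh. In all 4 genes sh1 experiment 1 was the highest value.

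Genes of RNA and chromatin came next. EXOSC2, a cap subunit of the RNA exosome, had 55.6% and 35.4% with sh1 and 52.3% and 38.3% with sh2, against 14.7% and 11.4% with Con_sh. Its next intron had 52.6% and 39.9% with sh1 and 54.7% and 43.8% with sh2, against 23.2% and 18.9% with Con_sh. The pair was alike in every knockdown library. NOP2, a ribosomal RNA methyltransferase, had a pair of listings shifted by 2 nt with nearly the same values. The first had 25.2% and 14.0% with sh1 and 14.6% and 11.9% with sh2, against 5.48% and 5.19% with Con_sh. The other had 25.6% and 13.9% with sh1 and 14.6% and 11.8% with sh2, against 5.51% and 5.20% with Con_sh. They were counted as 1 locus. SMYD2, a lysine methyltransferase, had 32.8% and 20.1% with sh1 and 37.3% and 28.3% with sh2, against 20% and 13.1% with Con_sh. ERCC5, a nuclease of nucleotide excision repair, had 23.3% and 17.5% with sh1 and 19.7% and 13.9% with sh2, against 7.54% and 11.5% with Con_sh. IPO9, an importer of histones, had 24.9% and 11.8% with sh1 and 25.3% and 16.1% with sh2, against 5.99% and 5.19% with Con_sh. In SMYD2 and ERCC5 the lowest knockdown value was close to the higher control.

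Several listed genes work in trafficking, signalling and transport. TRAPPC2, of the vesicle-tethering TRAPP complex, had 43.8% and 33.8% with sh1 and 41.2% and 28.3% with sh2, against 23.9% and 12.4% with Con_sh. SLC12A7, a potassium-chloride cotransporter, had 65.4% and 42.9% with sh1 and 60.9% and 42.7% with sh2, against 40.1% and 27.4% with Con_sh. PLCB3, a phospholipase C, had 38.6% and 16.8% with sh1 and 33.0% and 13.6% with sh2, against 7.09% and 6.31% with Con_sh. PLCB3 was low with Con_sh and SLC12A7 was not. STK11, the kinase LKB1, had 34.5% and 21.1% with sh1 and 23.7% and 24.2% with sh2, against 7.58% and 8.05% with Con_sh. GPAA1, of the complex that adds lipid anchors to proteins, had 54.9% and 44.6% with sh1 and 68.3% and 56.0% with sh2, against 25.5% and 28.3% with Con_sh in the first of 3 members by rise. The second had 52.4% and 46.5% with sh1 and 60.0% and 52.2% with sh2, against 32.5% and 39.3% with Con_sh. The third had 35.9% and 35.4% with sh1 and 51.5% and 43.2% with sh2, against 27.0% and 27.5% with Con_sh. In all 3 GPAA1 introns sh2 experiment 1 was the highest.

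The near-identical genes RABL2A and RABL2B, small GTPases of the cilium, can share reads, so their values are uncertain. RABL2A had 64.9% and 51.2% with sh1 and 55.7% and 46.5% with sh2, against 26.2% and 28.9% with Con_sh. Its second member by rise had 54.2% and 48.2% with sh1 and 54.6% and 51.3% with sh2, against 39.6% and 39.3% with Con_sh. The third had 38.4% and 40.7% with sh1 and 55.8% and 42.5% with sh2, against 35.2% and 36.0% with Con_sh. The control libraries differed by under 1 point in the RABL2A members at 39.6% and 39.3% and at 35.2% and 36.0% with Con_sh. The controls were farther apart in the RABL2A member with the largest rise, at 26.2% and 28.9%. RABL2B had 29.8% and 15.5% with sh1 and 16.7% and 14.5% with sh2, against 5.65% and 8.37% with Con_sh. RABL2B had the lowest control retention of the 4.

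LZTR1, an adaptor that marks RAS proteins for degradation, was read deeply. It had 45.4% and 32.4% with sh1 and 45.9% and 35.7% with sh2, against 16.7% and 15.1% with Con_sh in the intron at chromosome 22, 20996113 to 20996695. The intron at chromosome 22, 20994270 to 20994557 had 78.0% and 72.3% with sh1 and 71.4% and 70.5% with sh2, against 64.1% and 64.5% with Con_sh. The intron at chromosome 22, 20995027 to 20995745 had 22.7% and 18.0% with sh1 and 21.0% and 18.5% with sh2, against 11.4% and 14.8% with Con_sh. With Con_sh the intron at 20994270 stood far above the other 2 of the same gene.

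VPS16, a core subunit of the tethering complexes of lysosomes, held 5 overlapping or adjacent members. The most read (chromosome 20, 2862935 to 2863064) had 55.3% and 41.5% with sh1 and 54.9% and 33.7% with sh2, against 14.7% and 13.3% with Con_sh. The intron at chromosome 20, 2862711 to 2862806 had 34.3% and 32.4% with sh1 and 47.8% and 36.7% with sh2, against 21.4% and 17.0% with Con_sh. The long listing at chromosome 20, 2861705 to 2863064, which spans the others, had 93.1% and 93.0% with sh1 and 94.4% and 83.9% with sh2, against 82.4% and 62.9% with Con_sh. It was the highest in every library. Of the remaining short ones, the first had 25.8% and 15.3% with sh1 and 24.9% and 13.1% with sh2, against 8.60% and 6.90% with Con_sh. The second had 12.6% and 8.30% with sh1 and 16.5% and 12.8% with sh2, against 8.20% and 6.33% with Con_sh. The long listing shares its boundaries with shorter ones, and the 5 values cannot be taken as separate introns.

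Of 16 genes of the minor spliceosome, 9 had an eligible intron and 2 of these (22.2%) held a member. Among all genes with an eligible intron 681 of 7116 (9.57%) did, and the share of the list rests on 2 genes. RNPC3, which binds the U11 and U12 small nuclear RNAs, had 41.4% and 25.2% with sh1 and 46.5% and 25.6% with sh2, against 11.4% and 5.76% with Con_sh at chromosome 1, 103551793 to 103553273. The intron before it (chromosome 1, 103551074 to 103551720) had 38.5% and 28.2% with sh1 and 33.8% and 21.5% with sh2, against 7.49% and 5.63% with Con_sh. CENATAC, a protein of the minor tri-snRNP, had 15.3% and 11.7% with sh1 and 13.02% and 16.6% with sh2, against 6.92% and 6.34% with Con_sh. The knockdown groups did not overlap with Con_sh in any of the 3 introns, as the rule requires. Of 31 genes recalled to hold regulated introns or poison exons, 24 had an eligible intron. A member was held by 1 of these (4.17%), against 9.57% of all genes with an eligible intron. The gene was SRSF10, a splicing factor, at 59.3% and 36.9% with sh1 and 55.8% and 37.7% with sh2, against 34.9% and 23.0% with Con_sh.

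Members were often neighbours of other members. Of the 928 members, 193 (20.8%) had another member on the same strand within 500 nt that did not overlap it, against 592 of the 20556 other introns (2.88%), a description with no test. Such neighbours formed 94 pairs in 77 genes, the unnamed loci being counted together as a gene, with a median of 114 nt between the introns. Their rises differed by a median of 4.30 points, and by under 5 points in 49 of the 94 pairs. Where the stretch between is shorter than a sequenced fragment, 1 molecule can give reads at the ends of both introns, so a pair need not hold separate evidence. The largest were in CUEDC1, KATNIP, CLCN7, PEX16, SFI1, TEPSIN, STPG3 and TRIT1. In CUEDC1 the rises were 49.7 and 34.3 points on either side of 59 nt, and in CLCN7 40.2 and 39.4 points on either side of 110 nt. In TRIT1 they were 37.0 and 16.9 points.

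**Figure D4:**
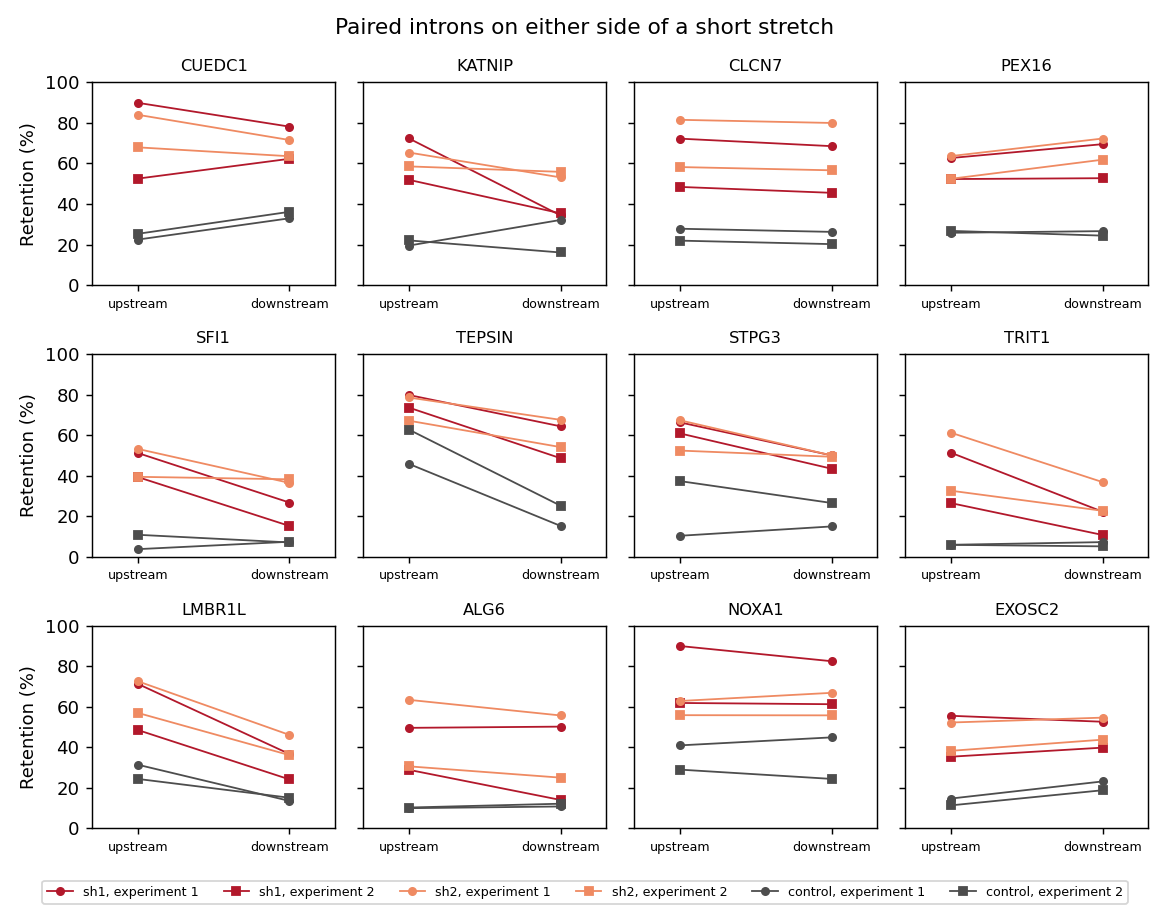
Retention in percent of the 12 named genes with the largest rises among paired members, with the upstream and downstream intron of each pair joined for every library. In CLCN7, PEX16, NOXA1 and EXOSC2 the lines are nearly flat. In KATNIP, SFI1, TEPSIN, STPG3, TRIT1 and LMBR1L the upstream intron is more retained in every knockdown library. In TEPSIN and LMBR1L it is also more retained in both control libraries.

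Several genes held members in many places. ACSM3, a mitochondrial acyl-CoA synthetase, and MAPK15, an atypical MAP kinase, had 6 loci each. In ACSM3 the rises were 9.80 to 17.1 points with 57.3 to 88.2 reads per intron, and in MAPK15 they were 7.83 to 13.8 points with 125.5 to 182.5 reads. The members of MAPK15 had control retention of 8.32% to 60.8%, and 12 of its introns were eligible. STPG3 had 3 members, all of its eligible introns, with rises of 27.4 to 37.9 points, and its highest control value was 37.3% in experiment 2 against 10.3% in experiment 1. SLC25A45, a mitochondrial carrier, also had 3 of 3.

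The rule treated both shRNAs alike, and the difference between them was tested. It asked all 4 knockdown libraries to be above both controls, so introns raised by only 1 shRNA were left out beforehand. The share of members called is therefore not free of the rule, and a low share does not show that the shRNAs act alike. With edgeR's quasi-likelihood test on boundary against spliced reads, 1 of 928 members was called between sh1 and sh2, where 0.0343% of all 134078 tested introns were (33 higher and 13 lower with sh1). At an unadjusted p under 0.05 there were 19 members (2.05%), against 420 (2.04%) of the other introns of like depth and control retention and 3.83% of all introns. The median log2 difference of sh1 minus sh2 was -0.04 for members and -0.14 for all introns. The mean retention was higher with sh1 in 447 members (48.2%).

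The called member was in TMEM87A, a Golgi membrane protein, at chromosome 15, 42228821 to 42231191. Its retention was 37.8% and 19.9% with sh1 and 7.49% and 7.71% with sh2, against 4.52% and 6.23% with Con_sh. Both sh1 values were above both sh2 values, and the sh2 values stood near the controls. The log2 difference was 2.24 ± 0.505 (SE), with an adjusted p of 0.0316 by edgeR. The call did not hold without sh1 experiment 1, where the difference was 1.60, or without either sh2 library.

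The other introns of the members' genes are those that the rule did not choose and that overlap no member. The rule was also applied to them and took out any that met it, so their test is not independent of the rule. Of 7205 such introns in 641 genes, 37 (0.514%) were more retained with the shRNAs at an adjusted p under 0.05 and 0 were less retained, by edgeR; over all tested introns 0.33% were called higher and 0.0209% lower. The median log2 change was 0.11, against 0.08 over all tested introns. The nearest other intron on each side of a member held 24 of the calls among 1090 tested (2.20%), with a median log2 change of 0.30. The introns farther away held 13 of 6115 (0.213%). A near intron can share sequenced fragments with the member beside it, so its call need not be separate evidence. Outside the members and the introns that overlap them, 306 of 132335 tested introns (0.231%) were called higher. Without Con_sh experiment 2 there were 20 calls in place of 37. The introns named next were chosen after their values were seen.

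AHCTF1, a nucleoporin that seeds nuclear pores, had a further intron (chromosome 1, 246887358 to 246888176) at 44.3% ± 20.1 with sh1 and 35.3% ± 11.8 with sh2, against 4.90% ± 0.233 with Con_sh (SD, n = 2 libraries), with an adjusted p of 8.17e-15 by edgeR. Its control mean was just under the 5% the rule asks for. DONSON, a replication fork protein, had 27.0% ± 18.5 with sh1 and 18.0% ± 10.7 with sh2, against 2.55% ± 0.540 with Con_sh. In MAPK8 the intron before the members had 19.6% ± 8.46 with sh1 and 28.0% ± 14.5 with sh2, against 2.43% ± 0.790 with Con_sh. The intron after the RNF121 member had 12.6% ± 9.81 with sh1 and 6.69% ± 1.36 with sh2, against 1.19% ± 0.124 with Con_sh. In TMEM87A the next intron had 3.41% ± 0.153 with sh1 and 3.26% ± 0.910 with sh2, against 0.767% ± 0.511 with Con_sh. Calls also lay in ALG3, EIF3K, RFC5, MLXIP, HARS1, XPO5, E2F3, ERCC5 and SRSF10, and in both SMPD4 and its copy SMPD4BP.

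Spliced reads of other introns were summed per gene, leaving out members and introns that overlap them, to see whether the genes' expression differed. With edgeR's quasi-likelihood test 0 of 640 genes were called (0.0% of 18102 genes were), and the lowest adjusted p among them was 0.575. At an unadjusted p under 0.05 there were 87 genes (13.6%), 39 higher and 48 lower, where 8.23% of all genes were, 830 higher and 659 lower. DESeq2 called 8 of 640 (1.25%), 3 higher and 5 lower, where 1.05% of all genes were, 119 higher and 61 lower. The median log2 change was -0.004 for the members' genes and -0.002 for all. Poly(A) RNA gives levels relative to the library, so a change in cells or in RNA per cell cannot be told apart.

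DESeq2 called CNST, AHCTF1 and FHIP2A higher, with log2 fold changes of 1.05, 0.81 and 0.83. It called BABAM1, KIF7, NFKBID, NOS3 and TRAPPC2L lower, with log2 fold changes of -0.62, -1.12, -1.02, -0.84 and -0.83. AHCTF1 had 366 and 302 CPM with sh1 and 262 and 280 CPM with sh2, against 141 and 199 CPM with Con_sh. KIF7 had 5.68 and 9.10 CPM with sh1 and 5.79 and 7.45 CPM with sh2, against 16.9 and 13.1 CPM with Con_sh. In both genes the knockdown and control libraries did not overlap. They were picked from the genes called, so this is no separate support, and the share among all genes is not given. CNST and AHCTF1 both lie on chromosome 1. BABAM1 belongs to a complex of the DNA damage response, KIF7 is a kinesin of the cilium, NOS3 is the endothelial nitric oxide synthase, and TRAPPC2L is a subunit of TRAPP complexes. None of the 8 passed edgeR.

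**Figure D5:**
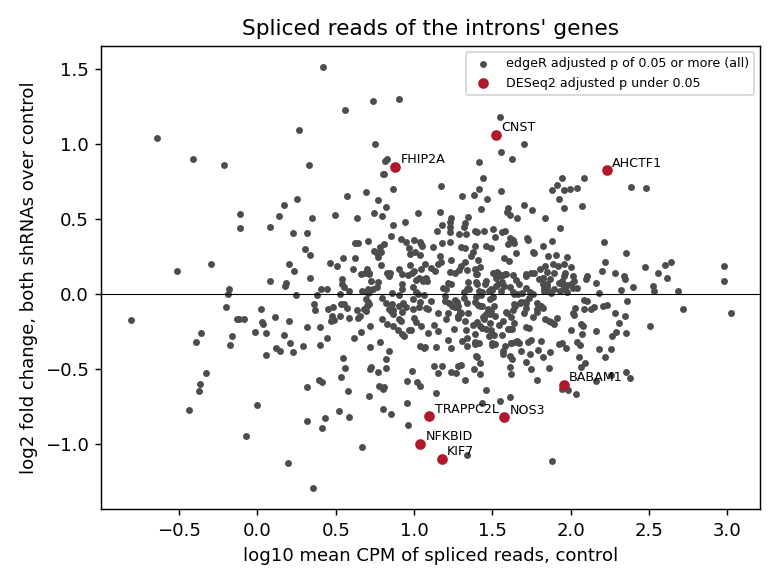
Log2 fold change of spliced reads, both shRNAs over control, against the log10 mean CPM in the control, 1 point per gene that holds a member. The points scatter on both sides of 0 at all levels, and the 8 genes named were called by DESeq2 alone. The fold changes are those of edgeR.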

How the data were processed

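RNA-seq tables of 6 libraries of K562 cells were used, 2 each with sh1, sh2 and Con_sh, grouped by the labels. Per the labels' protocols total RNA was column-purified and poly(A)-selected; which aligner and counter were used is not given in the sources used here. As deposited by the authors, the tables hold raw counts of reads at both boundaries of each intron and of spliced reads, a covered fraction of the intron's bases, and a retention percent, 100 times boundary over boundary plus 2 times spliced counts, per the file headers. Recomputed from the deposited counts, that percent deviated by at most 2.84e-14. A spliced read counts for every listed intron within its gap, on either strand (55590 of 55590 nested pairs on the same strand, 13982 of 13982 on the opposite one), which lowers the retention of inner introns.

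The submitters' processing notes name hg19, but positions behaved as GRCh38: read that way, 97.9% of readable introns opened with GT. Starts are counted from 1. RefSeq gene names were found for 94.6% of introns.

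The members and lists were chosen with earlier results of these data known. Introns with a mean of at least 20 reads were tested with edgeR (version 4.0.16, R 4.3.3), boundary and spliced counts as a pair with the library as a factor, all 6 libraries sharing 1 spread, 3 residual degrees of freedom, and Benjamini-Hochberg adjustment at 0.05 over all tested introns. Balance used the counts of both ends as the pair. For each gene, spliced reads of introns free of overlap with each other or with a member were added up, scaled with TMM, filtered with filterByExpr and tested with edgeR and, as an alternative, DESeq2 (version 1.42.0). CPM are of these sums. P-values cover the spread between these libraries, which may be technical. Named with full values are the 12 loci with the largest rise and every member in the recalled U12 genes, except those of 1 gene, which are not reported here; also named are loci 13 to 30, members called by a test, the 5 with the highest control retention and introns at each threshold. Programs were tested on simulated data. With the ratio of boundary to spliced reads changed between sh1 and sh2, 15 of 100 2-fold and 73 of 100 4-fold changes were called. In simulated gene sums 91 of 100 2-fold changes were called. The spread in these simulations was fixed and not taken from the libraries, so recovery in the data can be lower. Experiment numbers were not taken as pairs. Intervals and limits of a count of 0 (3 counts) cover counting error only.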

Additional observations from a re-analysis of the deposited data

Results flagged for a closer look

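The difference between sh1 and sh2 was past the threshold in 1 member, the intron of TMEM87A at chromosome 15, 42228821, with a log2 difference in boundary against spliced reads of 2.24 (adjusted p of 0.0316 by edgeR's quasi-likelihood test over all tested introns). Both sh1 libraries, at 37.8% and 19.9%, were above both sh2 libraries, at 7.49% and 7.71%. Whether it differs in cells beyond these libraries was not tested.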

How the results depend on the processing

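The number of members was 928 and changed with the limits: 486 with a rise of at least 10 points, 585 with the smaller boundary count doubled in place of the sum (390 of them shared), 1450 with the sh1 libraries only and 2158 with the sh2 libraries only. Without 1 library it was 993 to 2331, and 2331 without Con_sh experiment 1. Limits of 20 or 100 reads and of 3% or 10% control retention gave 639 to 1287. Between sh1 and sh2, 0 members were called with a mean of at least 50 reads, 0 with the smaller boundary count doubled and 0 to 2 without 1 library, in place of 1; with 50 reads as the minimum the TMEM87A difference was 2.24 and was no longer called. Other introns of the genes gave 8 calls with the smaller boundary count doubled and 20 to 48 without 1 library, in place of 37. Boundary balance gave 0 calls with a mean of at least 50 reads, 7 with at least 5, and 0 to 1 without 1 library, in place of 1. Spliced reads gave 8 calls with DESeq2 in place of 0, and 0 without any 1 library. Causes were not tested. With the experiment number as a replicate block, 3 members differed between sh1 and sh2, 52 other introns and 1 balance were called, and 0 genes. Deviations of same-numbered libraries correlated at 0.39 between sh1 and sh2 over the 928 members. The correlation was 0.0947 between sh1 and Con_sh and 0.104 between sh2 and Con_sh. Outside the set, experiment 1 was above experiment 2 in 69.9% of introns with sh1, 63.4% with sh2 and 63.9% with Con_sh. The main fits did not take the numbers as pairs, and whether the experiments share an effect was not tested. With 2 libraries a group, low counts limit small differences most.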
